A study of Mus musculus with 64 samples.

Results

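A set of 9 transcripts of the cytotoxic programme of lymphocytes (Nkg7, Gzma, Gzmb, Gzmk, Prf1, Ifng, Ctsw, Klrd1 and Cxcr6) was followed in microglia sorted from mouse retina before and after intravitreal (IVT) injection of AAV2. The members were chosen by symbol, and all 9 are among the 25239 genes in the deposited count table and among the 13584 genes that passed the filter on low counts and were tested. Their levels are given as CPM (the reads of a gene scaled to the total of its library), on library sizes scaled by the trimmed mean of M values.

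Every animal was a Cx3cr1CreER:R26-tdTomato +/- mouse, and tamoxifen eye drops had been given to switch on the red reporter tdTomato. Cx3cr1, which drives the recombinase, is a gene of microglia that monocytes and some lymphocytes also use. Naive eyes received no injection, and the other eyes received AAV2 without a transgene at 1e10 genome copies per eye and were collected at 12 (D12) or 28 days (D28), so that injection alone and vector cannot be told apart in these libraries. Live cells with high tdTomato were sorted in a fixed number from a single retina for each library, of which 62 were compared. Mice were 3, 9 or 18 months old and of both sexes. At 3 months there were 7 naive, 8 D12 and 7 D28 libraries, at 9 months 5, 7 and 7, and at 18 months 7, 7 and 7. Each library is a single retina, and the study's methods put the other eye of the animal to flow cytometry or staining, while the labels name no animals. The libraries were collected on 2 days, 27 on the first and 35 on the second, and each age and day holds libraries of both.

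The doubtful labels were settled before the comparisons. The library labelled 18-month female D28 replicate 1 had no Xist reads and 107 CPM of the Y-linked gene Ddx3y in the uncorrected table, and was left out. The library labelled 9-month male D28 replicate 1 had 255 CPM of Xist and none of Ddx3y there, and it has no column in the batch-corrected table. The 18-month male D28 replicate 4 is given as D28 in its title and D12 in another label, and was kept at D28. Total counts per library ran from 1468478 to 9836173 (median 4188992). A gene at 3 batch-corrected counts, the floor used here, lay between 0.361 and 2.12 CPM depending on the depth of the library. The floor covers counting error only, and not the batch correction. Summed CPM of 10 microglia markers ran from 31100 to 53900 in naive libraries, 8800 to 36500 at D12 and 17300 to 46400 at D28, so the labelled cell type was present in every library.

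Cytotoxic T cells and natural killer (NK) cells kill a target by releasing granules onto it. Perforin (Prf1) opens a path through the membrane, granzymes (Gzma, Gzmb, Gzmk) are the serine proteases that enter, and Nkg7 is a membrane protein of the granules that helps their release. Ctsw is a cathepsin of the same cells, Ifng encodes the cytokine interferon gamma, Klrd1 encodes CD94, the partner of the receptor NKG2A, and Cxcr6 encodes the receptor for the chemokine CXCL16. Microglia are not the usual source of these transcripts, and in bulk libraries of this kind a larger number of expressing cells cannot be told apart from more RNA in each cell.

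The members lie on 7 chromosomes (GRCm38, GENCODE vM21). Gzma (13:113093825-113100981) and Gzmk (13:113171608-113225908) stand on the minus strand of the same chromosome with 70626 bases between them, and Gzmb (14:56258838-56262260) and Ctsw (19:5465043-5468507) are also on the minus strand. Prf1 (10:61297833-61304680), Ifng (10:118441046-118445892), Nkg7 (7:43437073-43438249), Klrd1 (6:129591782-129598775) and Cxcr6 (9:123806475-123811760) are on the plus strand. RefSeq promoters of GRCm38.p6, each 250 bases before to 50 after the annotated start, were matched for 7 members, all but Ctsw and Klrd1. The 4 printed here belong to the members on which the comparisons of days turn, Cxcr6 and Gzmk, which passed the test at D12 at each age, Nkg7, which had the highest level per length, and Gzmb, the only member that passed the test between D28 and D12. Capitals mark TGTGGT or its reverse complement ACCACA, the core of the Runx motif bound by a family of lymphocyte transcription factors.
Cxcr6, chr9:123806227-123806526, plus strand: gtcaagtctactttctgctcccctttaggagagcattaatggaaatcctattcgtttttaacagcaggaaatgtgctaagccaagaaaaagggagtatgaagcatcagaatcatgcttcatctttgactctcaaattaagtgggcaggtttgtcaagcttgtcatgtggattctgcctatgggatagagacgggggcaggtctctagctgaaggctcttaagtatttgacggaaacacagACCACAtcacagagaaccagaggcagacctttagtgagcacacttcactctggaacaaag
Gzmk, chr13:113180916-113181215, minus strand: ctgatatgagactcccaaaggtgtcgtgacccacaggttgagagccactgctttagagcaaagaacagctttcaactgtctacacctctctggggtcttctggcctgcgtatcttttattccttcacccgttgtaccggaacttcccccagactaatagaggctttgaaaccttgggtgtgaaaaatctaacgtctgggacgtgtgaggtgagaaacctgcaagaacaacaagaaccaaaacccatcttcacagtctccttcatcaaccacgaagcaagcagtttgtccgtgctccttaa
Nkg7, chr7:43436888-43437187, plus strand: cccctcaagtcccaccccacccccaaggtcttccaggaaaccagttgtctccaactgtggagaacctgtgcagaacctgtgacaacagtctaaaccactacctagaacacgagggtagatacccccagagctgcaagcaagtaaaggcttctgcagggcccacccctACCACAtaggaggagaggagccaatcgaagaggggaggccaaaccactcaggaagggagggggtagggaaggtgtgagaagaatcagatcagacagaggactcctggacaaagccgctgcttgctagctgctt
Gzmb, chr14:56262285-56262584, minus strand: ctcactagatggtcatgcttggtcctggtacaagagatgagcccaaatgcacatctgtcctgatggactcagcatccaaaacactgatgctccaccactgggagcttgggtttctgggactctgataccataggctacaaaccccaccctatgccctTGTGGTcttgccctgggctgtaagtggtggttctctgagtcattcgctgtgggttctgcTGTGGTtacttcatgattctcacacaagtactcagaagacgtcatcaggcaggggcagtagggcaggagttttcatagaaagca

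On either strand, TGTGGT was present in 5 of the 7 member promoters (Cxcr6, Gzma, Gzmb, Nkg7 and Prf1) and in 16.8% of all 32851 promoters in the table. In Cxcr6 it began 10 bases before the start, in Nkg7 83 bases before, and Gzmb held it at both 93 and 34 bases before the start. The T-box letters AGGTGTG were found in 1 of the 7 (Nkg7, 14 bases before the start) and in 5.84% of all promoters. The STAT letters TTCNNNGAA were found in 3 of the 7 (Gzmb, Ifng and Nkg7) and in 8.3% of all promoters. The AP-1 letters TGANTCA were found in Gzmb alone of the 7, 58 bases before the start, and in 7.81% of all promoters, and the CRE letters TGACGTCA in none of the 7 and in 1.79% of all. No match overlapped another in these promoters. A match of letters is a description of the sequence and was not tested as a binding site. The annotated starts of RefSeq and GENCODE differ for Gzmk, whose promoter here lies inside the GENCODE gene. They also differ for Nkg7 and Gzmb, and by a few bases for Cxcr6 and Prf1. The positions given count from the RefSeq start only, and the T-box match of Nkg7 lies inside the GENCODE gene.

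The first question is whether the members were higher in microglia libraries at D12 than in naive libraries. Cxcr6 and Gzmk rose at each of the 3 ages, Nkg7 rose at 3 and 9 months, and Ctsw and Gzmb rose at 9 months. Against a log2 fold change of 1 (edgeR glmTreat, Benjamini-Hochberg adjusted p under 0.05 over all genes tested), 3 of the 9 members rose at 3 months, where 2.36% of all genes did. At 9 months 5 of 9 rose, against 2.82% of all genes, and at 18 months 2 of 9 rose, against 2.56% of all genes. No member fell, and 0.994%, 1.32% and 0.699% of all genes did. Over both sexes together, the summed CPM of each of the 9 members was higher at D12 than in naive libraries at every age. So was that of 6682 of 13436, 6856 of 13419 and 6507 of 13530 genes above 3 counts in either group at 3, 9 and 18 months. Within females this did not hold for every member. At 3 months Gzma, Gzmb, Ctsw, Klrd1 and Prf1 were lower at D12 in females, and Gzmk, Nkg7, Ifng and Cxcr6 higher. At 18 months Gzma and Prf1 were lower in females and the other members higher. Summed CPM of Gzma in females went from 20.7 to 9.01 at 3 months and from 48 to 9.42 at 18 months. In males, and in females at 9 months, every member was higher. The median log2 ratio over the 9, with groups under 3 counts set to 3 counts, was 2.41, 5.77 and 2.41 at 3, 9 and 18 months, against medians over all genes tested of 0.00, 0.02 and -0.03. A plain quasi-likelihood test with an estimated log2 fold change over 1 gave 6 members at 3 months and 6 at 18 months, among 1358 and 1354 of all 13584 genes. With no filter on low counts 7, 8 and 6 members were called at 3, 9 and 18 months, among 613, 752 and 634 of 20135 genes.

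**Figure D1:**
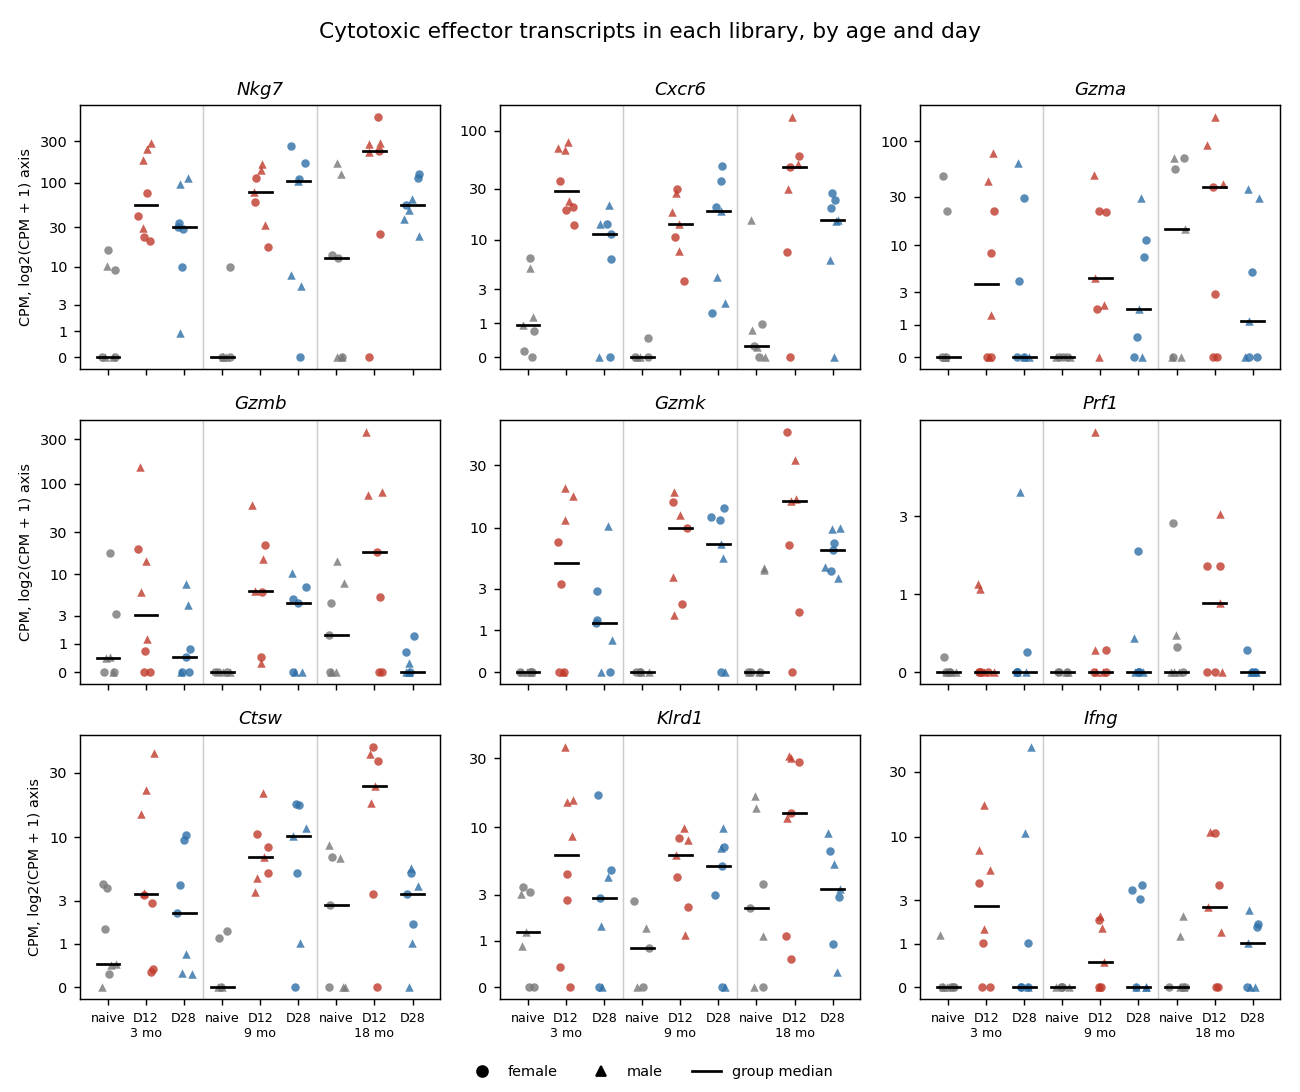
CPM of the 9 members on a log2(CPM + 1) axis, in naive, D12 and D28 libraries at 3, 9 and 18 months. Each point is a library (circles female, triangles male) and the bar is the group's median. Nkg7 and Cxcr6 at 3 months and the 5 members called at 9 months show D12 libraries entirely above naive ones. For Gzmb at 9 months the lowest D12 libraries are under 3 counts.

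Among the granzymes, Gzmk, a tryptase of memory and tissue T cells, was at or near 0 in naive libraries and rose at each age. At 3 months all 7 naive libraries were at 0, and the D12 libraries ran from 0 to 20.2 CPM with a median of 5.49. At 9 months each of the 5 naive libraries was at 0 and the D12 libraries ran from 1.57 to 18.8 CPM with a median of 10 CPM. At 18 months naive libraries ran from 0 to 4.6 CPM (median 0) and D12 libraries from 0 to 52.7 CPM (median 16.3). Thus the groups did not overlap at 9 months, while some D12 libraries at 3 and 18 months lay at 0 with the naive ones. Measured against 3 counts over the naive group, Gzmk was at least 73.6-fold higher at 3 months (adjusted p = 0.00452) and at least 86.6-fold higher at 9 months (adjusted p = 0.00588). At 18 months the ratio of summed CPM was 10.4 (adjusted p = 0.0126), and this call was lost without female D12 replicate 3 or female naive replicate 3 (highest adjusted p = 0.0859).

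Gzmb, the protease that cleaves caspases in the target, rose at 9 months. There the 5 naive libraries were each at 0 and the D12 libraries ran from 0.241 to 59.6 CPM with a median of 6.27. This was at least 124-fold higher than 3 counts over the group (adjusted p = 0.0143). The lowest D12 libraries, male replicate 4 and female replicate 2, held 1 and 2 counts, under the floor of 3. At 3 months Gzmb ran from 0 to 17.5 CPM in naive libraries (median 0.426) and from 0 to 153 CPM at D12 (median 3.74), and the groups overlapped (adjusted p = 0.235). At 18 months it ran from 0 to 14.2 CPM in naive libraries (median 1.49) and from 0 to 357 CPM at D12 (median 17.9), again with overlap (adjusted p = 0.227). The mean at 18 months was 76.9 ± 129 CPM (SD, n = 7) at D12 and 4.03 ± 5.39 (SD, n = 7) in naive libraries, so the spread exceeded the mean. The highest of these D12 libraries, male replicate 2, held 1395 counts after the batch correction and 785 before it.

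Gzma, a tryptase shared by NK cells and T cells, did not pass the test at any age. Its naive libraries ran from 0 to 46.7 CPM at 3 months and from 0 to 70.4 CPM at 18 months, and its D12 libraries from 0 to 78.3 and from 0 to 167 CPM. The naive and D12 groups overlapped across most of their ranges. At 9 months the 5 naive libraries were each at 0, and the D12 libraries ran from 0 to 47.8 CPM with a median of 4.48 (at least 121-fold higher, adjusted p = 0.0995). DESeq2 called Gzma at 3 and at 9 months. At 3 months the ratio of summed CPM was only 1.5. Summed CPM there went from 20.7 in naive to 9.01 in D12 females and from 0 to 33.1 in males.

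Prf1 was the scarcest member. It reached 3 counts in 7 of 22 D12 libraries, 2 of 21 D28 libraries and 2 of 19 naive libraries, and its highest value was 7.45 CPM, in 9-month male D12 replicate 1. That library held 19 of the 21 counts of the 9-month D12 group, against 0 in the naive group (adjusted p = 0.412). No difference in Prf1 between days passed the test at these low counts, and the part of depth was not tested.

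The wider granule machinery was tested as a list. Of 11 genes of granule loading and release, 1 rose at D12 at 3 months, 2 at 9 months and 1 at 18 months, with a median log2 ratio of 0.62, 1.11 and 0.62, where 2.36%, 2.82% and 2.56% of all genes rose. Stx11, a syntaxin needed for granule fusion, rose at each age, from 0.274 ± 0.542 to 5.08 ± 2.88 CPM at 3 months (n = 7 and 8) and from 0.735 ± 1.58 to 6.52 ± 2.95 at 18 months (n = 7 and 7). At 9 months Stx11 was at 0 in the 5 naive libraries and at 10.7 ± 7.55 CPM (SD, n = 7) at D12. Fasl, the death ligand carried to the surface by the same route, rose at 9 months, from 0 in 5 naive libraries to 3.7 ± 3.24 CPM (SD, n = 7; adjusted p = 0.0231). Srgn, the proteoglycan that packs granzymes, and Ctsc, the protease that activates them, were abundant in naive libraries and did not pass the test. Srgn measured 333 ± 77.8, 282 ± 93.7 and 388 ± 71 CPM (SD) in naive libraries at 3, 9 and 18 months and 361 ± 96.4, 621 ± 197 and 608 ± 312 at D12, and Ctsc 2380 ± 1160, 2540 ± 1630 and 1720 ± 314 against 3160 ± 1210, 4450 ± 1960 and 5020 ± 2040. Of the other granzymes only Gzmc and Gzmm of 7 were tested, and neither was called.

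A list of serpins, the family that holds the inhibitors of granzymes, had 3 of 4 genes tested. At 3 months 2 rose, and 1 at each of 9 and 18 months, which was Serpina3g alone. Serpina3g, known as an inhibitor of lysosomal cathepsins, rose at each age, from 0.368 ± 0.628 to 41.5 ± 32.9 CPM at 3 months, from 0 in each of 5 libraries to 37.5 ± 24.6 at 9 months, and from 0.505 ± 1.23 to 46 ± 39.1 at 18 months. Serpinb9, the inhibitor of granzyme B, stood at 19.5 ± 5.87, 15.9 ± 13.2 and 16.3 ± 8.57 CPM in naive libraries and 50.3 ± 12.3, 45.6 ± 15 and 54.6 ± 26.3 at D12, with log2 fold changes of 1.4, 1.66 and 1.73 that did not pass the test against 1 (adjusted p = 0.440, 0.173 and 0.103).

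Nkg7 was the most abundant member at D12. At 3 months naive libraries ran from 0 to 15.9 CPM (median 0) and D12 libraries from 20.7 to 285 CPM (median 57.7), with no overlap. The log2 fold change was 4.13 (SE 1.06, adjusted p = 0.0264). At 9 months 4 naive libraries were at 0 and female replicate 3 was at 9.9 CPM, while D12 libraries ran from 17.2 to 164 CPM (median 76.8), again without overlap, and the ratio of summed CPM was 54.5 (adjusted p = 0.0063). At 18 months naive libraries ran from 0 to 170 CPM (median 12.7) and D12 libraries from 0 to 562 CPM (median 231). Here the groups overlapped and the ratio of summed CPM was 3.81 (adjusted p = 0.130). The 3-month call was lost in DESeq2 (adjusted p = 0.214) and on uncorrected counts without a batch term (adjusted p = 0.154). Within the first collection day the 3-month means were 183 CPM at D12 and 5.29 in naive libraries, and within the second they were 41.4 and 4.79.

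Ctsw rose at 9 months. The naive libraries of females 2 and 3 held 1.21 and 1.45 CPM, the other 3 were at 0, and the D12 libraries ran from 3.61 to 21.6 CPM with a median of 7.04. These groups did not overlap, and the ratio of summed CPM was 18.3 (adjusted p = 0.0110). At 3 months the mean was 11.2 ± 14.7 CPM (SD, n = 8) at D12 and 1.54 ± 1.8 (SD, n = 7) in naive libraries, and at 18 months 24.1 ± 18 and 3.64 ± 3.85 (SD, n = 7 each), and these did not pass the test (adjusted p = 0.238 and 0.124). The 9-month call was lost when sex was a term beside the groups of age and day, an alternative chosen after seeing the data (adjusted p = 0.0649).

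The 5 calls at 9 months had only 5 naive libraries behind them, 2 of them male. Without male naive replicate 1, or without male naive replicate 2, Cxcr6 was the only member called there at D12.

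Ifng, the cytokine of activated T and NK cells, did not pass the test at any age. It reached 3 counts in 14 of 22 D12, 10 of 21 D28 and 3 of 19 naive libraries. At 3 months D12 libraries ran from 0 to 17.2 CPM (median 2.89) and the mean was 4.67 ± 5.79 (SD, n = 8) against 0.186 ± 0.493 (SD, n = 7) in naive libraries (adjusted p = 0.0734). At 9 months the naive libraries were at 0 and the D12 mean was 0.867 ± 0.958 CPM (SD, n = 7; adjusted p = 0.223), with 16 of the 26 counts in female replicate 1. At 18 months the means were 4.24 ± 4.72 and 0.479 ± 0.854 CPM (SD, n = 7 each; adjusted p = 0.130).

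The receptor of interferon gamma and the genes that answer it were tested as a list. Of 13 tested genes of its receptor and targets, 7, 8 and 8 rose at D12 at 3, 9 and 18 months and none fell, with a median log2 ratio of 1.94, 3.25 and 3.13. Cd274, which encodes PD-L1, rose with log2 fold changes of 2.38 (SE 0.35), 2.72 (SE 0.41) and 3.36 (SE 0.37). Cd274 is also a target of type I interferon. The receptor genes Ifngr1 and Ifngr2 were not called, with log2 fold changes of -0.83, -1.19 and -0.64 for Ifngr1 and 0.17, 0.25 and 0.22 for Ifngr2. At D28 1, 2 and 2 genes of this list were still higher than naive at 3, 9 and 18 months, Cxcl9 at each age, Ciita at 9 months and Cd274 at 18 months, of which Cxcl9 and Ciita are named after their values were seen.

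Klrd1 reached 3 counts in 12 of 19 naive libraries, more than any other member, and in 19 of 22 D12 and 16 of 21 D28 libraries. Its naive means were 1.69 ± 1.52, 0.98 ± 1.11 and 5.38 ± 6.93 CPM at 3, 9 and 18 months, and its D12 means 10.3 ± 11.9, 5.77 ± 3.28 and 16.5 ± 13.4 (SD). None of the 3 differences passed the test (adjusted p = 0.924, 0.409 and 0.615). Its partner Klrc1, which encodes the inhibitory NKG2A, rose at 9 months, from 0 in each of 5 naive libraries to 3 ± 1.96 CPM (SD, n = 7; adjusted p = 0.0308), and was not called at 3 or 18 months. Klrk1, which encodes NKG2D, an activating receptor that does not pair with CD94, was not called at any age, with 1.7 ± 3.15, 0.376 ± 0.628 and 4.3 ± 6.17 CPM in naive libraries and 8.88 ± 10.7, 7.95 ± 7.31 and 22.7 ± 21.2 at D12 (SD). Of 9 tested NK-type receptors, 2, 3 and 2 rose at D12. Cd244a, a receptor of the SLAM family, was among them at each age and also rose at D28, from 15.1 ± 3.57 to 55.5 ± 17.4 and 60.1 ± 20.9 CPM at 3 months, from 10.5 ± 5.3 to 152 ± 41.1 and 58.7 ± 15.3 at 9 months, and from 11.9 ± 6.86 to 133 ± 68.1 and 60.1 ± 23.8 at 18 months (naive, D12 and D28).

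Cxcr6 rose at D12 at each age. At 3 months naive libraries ran from 0 to 6.56 CPM (median 0.94) and D12 libraries from 13.9 to 78.9 CPM (median 29.5). At 9 months 4 naive libraries were at 0 and female replicate 3 was at 0.483 CPM, while D12 libraries ran from 3.78 to 30.1 CPM (median 14.1). At 18 months naive libraries ran from 0 to 15.6 CPM (median 0.251) and D12 libraries from 0 to 132 CPM (median 47.7). Every D12 library was above every naive library at 3 and 9 months, and at 18 months the ranges overlapped through D12 female replicate 1, at 0, and D12 female replicate 2, at 7.48 CPM. The log2 fold change was 4.06 (SE 0.90, adjusted p = 0.00735) at 3 months and 4.92 (SE 0.996, adjusted p = 0.00266) at 18 months. At 9 months the naive group held 2 counts in all, both in female replicate 3, and the ratio of summed CPM was 229 (95% exact interval 63 to 1890, which covers counting error only; adjusted p = 0.00162). These 3 calls held in each of the 11 alternatives and with each library left out in turn. Over the 9 members, 2 did not overlap between naive and D12 at 3 months (Cxcr6 and Nkg7, against 6.46% of all genes), the 5 called at 9 months (4.72%) and none at 18 months (2.23%). For Gzmb at 9 months the separation rested on D12 libraries under 3 counts.

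Cxcl16, the ligand of CXCR6, was present in naive libraries and rose with it. It went from 100 ± 20.7 CPM (SD, n = 7) in naive libraries to 604 ± 59.1 (SD, n = 8) at D12 at 3 months, from 135 ± 45.9 (n = 5) to 740 ± 284 (n = 7) at 9 months and from 115 ± 20.9 to 686 ± 298 (n = 7 each) at 18 months. The log2 fold changes were 2.59 (SE 0.24, adjusted p = 1.02e-07), 2.50 (SE 0.28, adjusted p = 6.79e-06) and 2.57 (SE 0.24, adjusted p = 3.78e-07). The D28 means were 262 ± 44.6, 318 ± 98.7 and 345 ± 46.3 CPM, which did not pass the test against naive. Of 8 lymphocyte chemokine and homing genes, 2 rose at D12 at each age (Cxcl16 and Ccl5, the second named after its values were seen) and 0 at D28. Of 8 transcription factors of cytotoxic lymphocytes, 3, 2 and 3 rose at D12 and 0, 0 and 1 at D28. Bhlhe40 rose at 3 and 18 months, from 2.55 ± 2.02 to 12.2 ± 5.09 CPM and from 2.26 ± 2.33 to 14.2 ± 7.45 (SD), and was also higher at D28 than naive at 18 months, at 23.2 ± 10.9 CPM.

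At D28 Ctsw, Cxcr6 and Nkg7 were higher than naive at 9 months, 3 of 9 members where 0.523% of all genes were. No member was called at 3 months (0.427% of all genes higher, 0.0663% lower) or at 18 months (0.596% higher, 0.184% lower) in edgeR, with 4 and 3 members at an unadjusted p under 0.05, and DESeq2 called 1 and 0. The median log2 ratio of the 9 members to naive was 2.1, 4.89 and -0.3 at 3, 9 and 18 months, with 7, 9 and 4 of the 9 higher in summed CPM. Over all genes the medians were -0.02, 0.01 and 0.00, and 6460 of 13394, 6803 of 13396 and 6810 of 13521 genes were higher.

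In the 7 libraries at 9 months and D28, Cxcr6 ran from 1.48 to 48.5 CPM (median 18.8), above all 5 naive libraries, with a ratio of 237 (exact interval 65.2 to 1960, for counting error only and resting on the same 2 naive counts; adjusted p = 0.0106), the only one of the 9 members without overlap (3.04% of all genes, and none of the 9 at 3 and 18 months against 2.58% and 1.99%). Nkg7 ran from 0 to 264 CPM (median 103) with a ratio of 56.2 (adjusted p = 0.0382), and Ctsw from 0 to 17.7 CPM (median 10.3) with a ratio of 19 (adjusted p = 0.0470). Gzmk ran from 0 to 14.4 CPM (median 7.39), at least 61.2-fold above 3 counts in the naive group, and just missed the threshold (adjusted p = 0.0512). Female replicate 1 was the lowest library in Cxcr6, Nkg7 and Ctsw and had 1 of the 9 members at 3 counts or more, and without it 4 members were called. On uncorrected counts and with the replicate block Cxcr6 alone was called, and without male D28 replicate 2 or either male naive library none was.

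At 3 months Nkg7 ran from 0.903 to 114 CPM at D28 (median 30), Cxcr6 from 0 to 21.3 (median 11.3) and Gzmk from 0 to 10.4 (median 1.28). Their adjusted p against naive were 0.506, 0.969 and 0.158. At 18 months Nkg7 ran from 23.9 to 124 CPM (median 54.7), Cxcr6 from 0 to 27.8 (median 15.4) and Gzmk from 3.81 to 10 (median 6.61), with adjusted p of 1, 0.202 and 0.289. The 18-month naive group is itself wide, with 2 male libraries at 124 and 170 CPM of Nkg7. Without one of them, male naive replicate 2, Cxcr6 passed the test at D28.

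Between D28 and D12 directly, Gzmb fell at 18 months and no other member was called. Its D28 libraries ran from 0 to 1.45 CPM (median 0) and its D12 libraries from 0 to 357 (median 17.9), with a log2 fold change of -6.99 (SE 1.54, adjusted p = 0.0495), where 0.169% of all genes fell. This call was lost in 7 of the 11 alternatives, DESeq2 among them (adjusted p = 0.202), and without any one of 11 of the 14 libraries. At 3 and 9 months 0 of 9 members were called (0.081% and 0.213% of all genes lower, 0.0221% and 0.125% higher), with 2 and 0 at an unadjusted p under 0.05 and 0 in DESeq2. The fitted log2 fold change was below 0 for 8, 8 and 9 of the 9 members at 3, 9 and 18 months. Its median over all genes was -0.0282, -0.0195 and 0.0043. Summed CPM did not fall in every member. From D12 to D28 at 9 months it went from 86.9 to 89.7 for Nkg7, 17.8 to 18.4 for Cxcr6, 8.55 to 8.86 for Ctsw and 0.842 to 1.57 for Ifng. At 3 months it went from 4.39 to 6.45 for Ifng and from 0.264 to 0.548 for Prf1. The other members were lower at those ages, and every member was lower at 18 months.

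The number of members present in a library was counted, without a test, on the batch-corrected counts. The correction moved some values across 3 counts in either direction. In 9-month female D12 replicate 2 Gzmb held 2 counts after it and 5 before. In 9-month male D12 replicate 1 Ifng held 4 after it and 2 before. Of the 9 members, naive libraries held a median of 2 at 3 counts or more (0 to 9), D12 libraries 8 (0 to 9) and D28 libraries 6 (1 to 8). All 9 members were present in 7 D12 libraries, no D28 library and 1 naive library, 18-month male replicate 2, and none in 4 naive libraries and 1 D12 library. By age the naive medians were 2, 1 and 6 at 3, 9 and 18 months, the D12 medians 7, 7 and 9 and the D28 medians 6, 7 and 6. By gene, Gzmk separated the days most, in 18 of 22 D12, 16 of 21 D28 and 2 of 19 naive libraries, and Gzmb was in 16, 9 and 6.

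**Figure D2:**
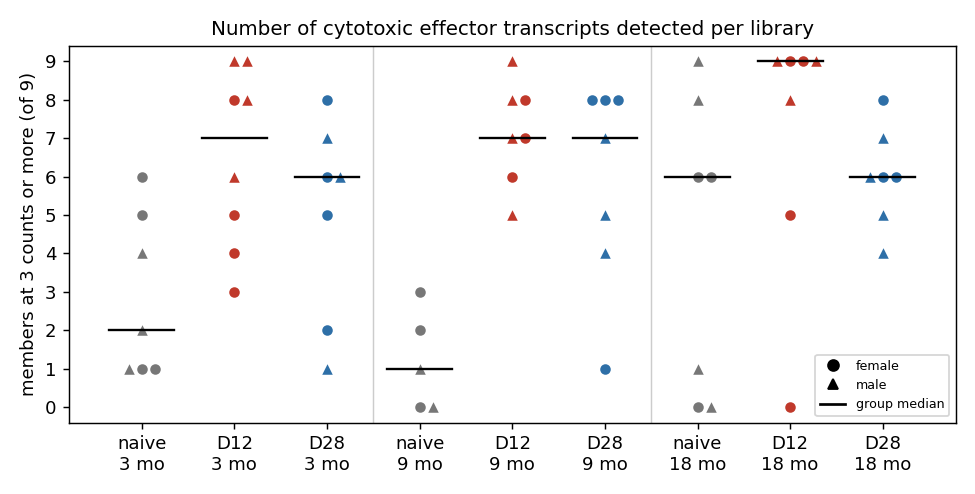
Number of the 9 members at 3 counts or more in each library, by age and day (circles female, triangles male). D12 medians are 7, 7 and 9 at 3, 9 and 18 months, and the naive libraries at 18 months spread from 0 to 9.

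Age was tested at each day after injection. No member differed between 9 and 3 months or between 18 and 3 months, at D12 or at D28 (edgeR glmQLFTest, adjusted p under 0.1), where 1.65% and 1.97% of all genes differed at D12 and 0% and 0.0442% at D28. At an unadjusted p under 0.05 there were 0 and 2 members at D12 and 1 and 0 at D28, and DESeq2 called none. At D12 all 9 fitted log2 fold changes of 18 against 3 months were above 0, with a median over all genes of 0.016. The mean CPM of Ifng was nonetheless lower at 18 months (4.24) than at 3 months (4.67), while the means of the other members were higher. The change from naive to D12 or to D28 was also compared between ages as an interaction, in tests chosen after seeing the data. None of the 9 members was called in 9 against 3 or 18 against 3 months (0 and 0 members at an unadjusted p under 0.05 for D12, where 0.0368% and 0.155% of all genes were called, and 3 and 2 for D28, where 0% were). So the calls of 5 members at 9 months and of 3 and 2 at the other ages were not shown to differ between ages.

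Males and females were compared over the 3 ages. At D12 all 9 fitted log2 fold changes were above 0 (higher in males), with a median over all genes of -0.0102. By summed CPM each member was higher in males at 3 and 18 months, but not at 9 months. There females were higher in Gzma (16.5 against 11 CPM), Cxcr6 (18.1 against 17.4), Gzmk, Ctsw and Ifng, and males in Gzmb, Nkg7, Klrd1 and Prf1. No member passed the adjusted p of 0.1 (0.0589% of all genes did), with 4 at an unadjusted p under 0.05 (Gzmb, Prf1, Klrd1 and Ctsw) and 0 in DESeq2. Gzmb came nearest, with a log2 fold change of 3.00 (SE 0.85, adjusted p = 0.339). At 18 months it was 76.5, 80.9 and 357 CPM in the 3 D12 males and from 0 to 17.9 CPM in the 4 D12 females, and these did not overlap. The batch correction moved these male values, from 113 to 165, 919 to 665 and 785 to 1395 counts. At 3 months Gzmb was 1.27 to 153 CPM in 4 males and 0 to 19.5 in 4 females, and at 9 months 0.241 to 59.6 in 4 males and 0.445 to 21.7 in 3 females, with overlap. Without 18-month female D12 replicate 3, or without 3-month female D12 replicate 2, Gzmb passed the threshold. At 3 months 3 of the 4 D12 males were of the first collection day and 3 of the 4 females of the second, and the part of collection day in the difference was not tested. At D28 no member was called (0.0589% of all genes), 1 had an unadjusted p under 0.05, DESeq2 called none, and 4 of the 9 fitted values were above 0. The change from naive was not shown to differ between the sexes either, with 0 members called at D12 and at D28 (0% of all genes) and 1 and 0 at an unadjusted p under 0.05.

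Per kilobase of exon, which allows levels to be compared between genes, Nkg7 stood first at D12 at 155 ± 150 CPM per kb (SD, n = 22). By mean it was followed by Gzma at 26.7 ± 40.8, Gzmb at 26.7 ± 56.1, Cxcr6 at 18.1 ± 16.3, Klrd1 at 8.47 ± 8.6, Gzmk at 8.27 ± 9.11, Ctsw at 7.7 ± 7.88, Ifng at 2.57 ± 3.52 and Prf1 at 0.304 ± 0.653. Nkg7 was above Gzma in 20 of 22 libraries and Cxcr6 above Klrd1 in 19 of 22, but Gzmb was above Cxcr6 in only 4 of 22, and by median Cxcr6 (13.1) stood above Gzma (6.4) and Gzmb (4.34). Every difference between neighbours was smaller than its SD over libraries. At D28 the order of means began with Nkg7 at 74.9 ± 72.1, Gzma at 10.3 ± 16.8, Cxcr6 at 7.55 ± 6.54 and Gzmk at 3.93 ± 3.31 CPM per kb (SD, n = 21), and Gzmb stood eighth at 1.4 ± 2.18, with Gzma above Cxcr6 in 6 of 21 libraries. In naive libraries Nkg7 (21 ± 50.4) and Gzma (14.6 ± 25.3) led with medians of 0, and Cxcr6 stood sixth at 0.903 ± 1.97 (SD, n = 19).

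Many transcripts of a T cell list rose with the members at D12. Of 16 T cell markers tested, 11 rose and 1 fell (Il7r) at D12 at 3 months, 12 rose at 9 months and 7 rose at 18 months, and 0, 6 and 3 rose at D28 (Il7r is named after its values were seen). Their summed level ran from 17.9 to 250 CPM in naive libraries (median 38.9), 13.1 to 584 at D12 (median 189) and 36.4 to 272 at D28 (median 114). The sum was not a measure of T cells alone. In 9-month female naive replicate 1 it was 92.6 CPM, with Cd3e, Cd8a and all 9 members at 0. The 8 NK cell markers, 4 of them tested, summed to 0 to 15.6 CPM in naive libraries (median 0.144, 9 libraries at 0), 0.56 to 35.7 at D12 (median 9.85) and 0.128 to 7.06 at D28 (median 2.55), and 0, 2 and 1 of the 4 rose at D12. Of the 10 microglia markers 4 fell at D12 at each age and none at D28. Markers of monocytes and neutrophils summed to medians of 189, 260 and 191 CPM, of B cells to 84.8, 48.9 and 54.3 and of photoreceptors to 1660, 704 and 1340 in naive, D12 and D28 libraries. The part of any of these cell types in the members' values was not tested.

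Single libraries show which members went with which markers. Cd3e, a chain of the T cell receptor complex, reached 3 counts in 21 of 22 D12 and 19 of 21 D28 libraries. Ncr1, the receptor that marks NK cells, did so in 4 and 2, but other NK cell markers did so more often. Klrb1c reached 3 counts in 4 of 8, 6 of 7 and 6 of 7 D12 libraries at 3, 9 and 18 months, and Klre1 in 5, 6 and 5. At D28 Klrb1c reached it in 4, 4 and 5 of 7 libraries and Klre1 in 2, 2 and 4. The D12 library without Cd3e, 18-month female replicate 1, had none of the 9 members at 3 counts, and its microglia markers summed to 36500 CPM, within the naive range. In naive eyes the members went with either marker. In 3 libraries, 3-month female replicate 4 and 18-month female replicates 2 and 3, Ncr1 stood at 2.46, 5.47 and 8.79 CPM with Gzma at 46.7, 55.4 and 69.6 CPM and Nkg7 at 8.96, 12.7 and 13.8 CPM, while Cd3e, Cd8a and Gzmk were at 0 in each. In 2 others, 18-month male replicates 2 and 4, Cd3e stood at 10.3 and 5.24 CPM and Cd8a at 28.1 and 24.5 CPM. In the same 2 libraries Nkg7 stood at 170 and 124 CPM, Gzma at 14.5 and 70.4 CPM and Gzmk at 4.6 and 4.49 CPM. The NK cell marker Klre1 stood at 7.1 and 0 CPM in them, so T cell and NK cell markers were not always apart. Cd3e also reached 3 counts in 3-month female replicate 1 and 3-month male replicate 2, with Nkg7 at 15.9 and 10.2 CPM. Klre1 was at 0 and 4.78 CPM in these libraries. The other 12 naive libraries, with neither Cd3e nor Ncr1 at 3 counts, held 0 to 3 of the members. Among them, the T cell marker Cd3g reached 3.86 CPM in a 9-month female library, where Cd3e was at 0.

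**Figure D3:**
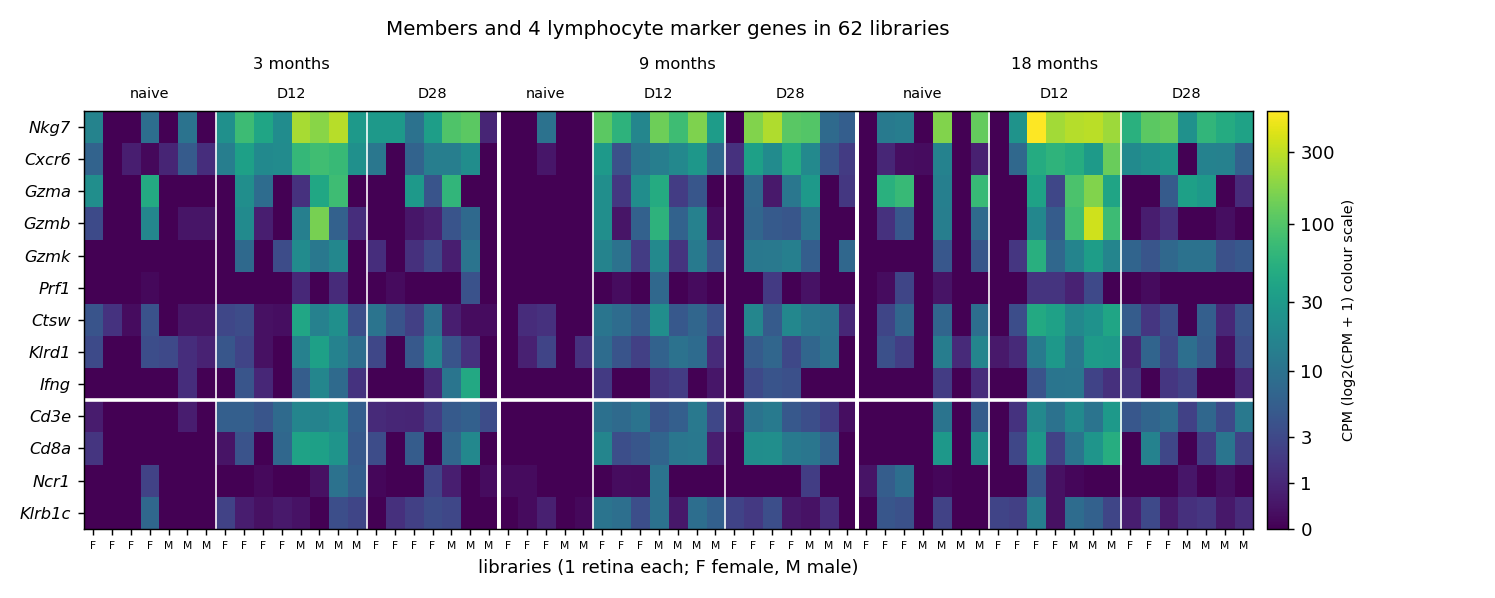
Level of the 9 members and of the T cell markers Cd3e and Cd8a and the NK cell markers Ncr1 and Klrb1c in each of the 62 libraries, on a log2(CPM + 1) colour scale, ordered by day and age. Most D12 and D28 columns carry Nkg7 with Cd3e, and 3 naive columns carry Gzma with Ncr1 and without Cd3e.

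Across the 62 libraries, which share depth, sorting and the change of day, the log2 CPM of Nkg7 followed that of Cd3e (Pearson r 0.876), as did that of Cxcr6 (0.862) and of Gzmk (0.81), while Gzma followed Gzmb (0.743) more than Cd3e (0.438). Gzma and Ncr1 gave 0.436 over the 62 libraries and 0.667 over the 19 naive ones, and Gzmk and Ncr1 gave 0.0636. These are given as descriptions, and low counts widen them.

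**Figure D4:**
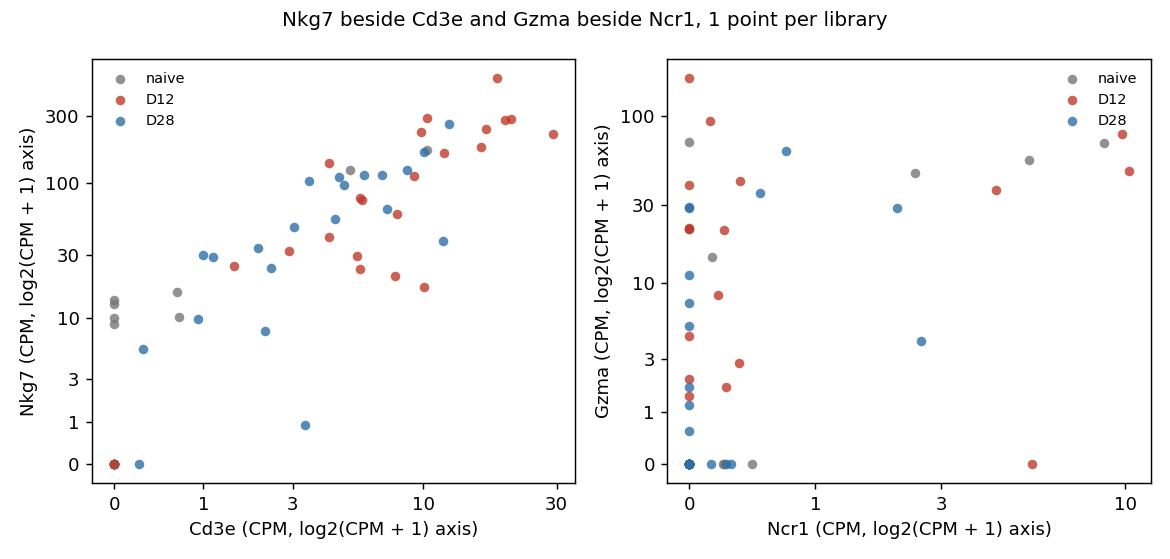
Nkg7 against Cd3e, and Gzma against Ncr1, with 1 point for each of the 62 libraries on log2(CPM + 1) axes. Nkg7 lies along Cd3e (r 0.876), whereas most libraries with Gzma hold Ncr1 at under 3 counts (r 0.436).

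The genes whose pattern over the 62 libraries was most like the mean log2 CPM of the 9 members were Gimap3 (Pearson r 0.905), Ms4a4b (0.888), Gimap7 (0.875), Gimap4 (0.868), Fasl (0.867), Cd2 (0.852), Cd3e (0.833), Ly6c2 (0.831), Cd8a (0.82) and Hsd11b1 (0.817). The first 4 are lymphocyte genes, Gimap3, Gimap4 and Gimap7 encoding small GTPases, and Cd2, Cd3e and Cd8a encode surface proteins of T cells. With the mean of each group of age, sex and day removed, the coefficients of these 10 genes ran from 0.692 for Cd8a to 0.884 for Ms4a4b, so libraries of one group also differed in these genes together.

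Within each collection day, the mean of 7, 9 and 8 of the 9 members was higher at D12 than in naive libraries on both days at 3, 9 and 18 months, and of 7, 8 and 3 at D28. Each called member was higher than naive on both days in the comparison in which it was called. For Cxcr6 the D12 and naive means were 57.9 and 2.5 CPM on the first day and 24.6 and 1.83 on the second at 3 months, 22.5 and 0 against 7.4 and 0.161 at 9 months, and 19.3 and 5.29 against 67.5 and 0.499 at 18 months.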

How the data were processed

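The authors sorted microglia from single retinas, amplified cDNA (SMART-Seq v4, Nextera XT), aligned single-end reads to mm10 (submitters' notes: STAR 2.7.8a, bcl2fastq 2.20, R 4.2.2), counted reads per gene with featureCounts and removed collection day with ComBat_seq. The deposited tables hold whole counts, unscaled, before and after that correction. The kit does not mark strand.

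Here the corrected counts of 62 libraries were scaled by TMM, filtered by filterByExpr and fitted by quasi-likelihood with a mean for each of 18 groups of age, sex and day (edgeR 4.0.16, R 4.3.3). Day contrasts averaged both sexes. No p was adjusted over the 9 members alone. Where a group was at 0, folds are lower bounds against 3 counts over that group, and fitted values are given only where both sexes had naive reads. The members, lists and tests were chosen with earlier results of these data known, and the interactions and the fit with sex as a term after the data were seen. Named list genes were limited to partners fixed by role and to called genes whose D12 and naive libraries do not overlap (at most 4 a list, smallest p), apart from markers, sex-linked checks, Gzmc, Gzmm and those said to be named later. The code was tested on simulated data. Alternatives were DESeq2 1.42.0, its size factors, no filter, uncorrected counts, a replicate block, a fit per age, a plain test, other labels and leaving out each library. Trbc1 and Trbc2 were not analysed here. Promoters are RefSeq's, and coordinates GENCODE's.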

Additional observations from a re-analysis of the deposited data

Results flagged for a closer look

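Both libraries that entered no comparison carried members above every naive library of the uncorrected table. The library labelled 9-month male D28 replicate 1 held 18.4 CPM of Gzmk, 19.0 of Ctsw, 3.88 of Ifng and 41.1 of Cxcr6, where the highest naive values were 4.93, 8.87, 1.72 and 18.6 CPM. The library labelled 18-month female D28 replicate 1 held 5.94 CPM of Gzmk, 2.7 of Prf1 (highest naive 1.45), 15.1 of Ctsw and 52.9 of Cxcr6. The sex-linked genes of both went against their labels.

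A library stood apart from the rest of its group of age and day in 11 of 75 groups of member values. Prf1 made 6 of them: 3-month naive female replicate 4 at 0.144 CPM, 9-month D12 male replicate 1 at 7.45, 3-month D28 male replicate 2 at 3.97, 9-month D28 female replicate 3 at 1.93, 18-month D28 female replicate 3 at 0.218 and 18-month naive female replicate 3 at 2.76. Cxcr6 made 3, in 18-month D28 male replicate 1 at 0 CPM, 9-month naive female replicate 3 at 0.483 and 18-month naive male replicate 2 at 15.6. The same 9-month naive female replicate 3 stood apart in Nkg7 at 9.9 CPM, and 3-month naive male replicate 2 in Ifng at 1.3 CPM. Several of these values are at or under 3 counts, where a single read separates a library from others at 0. The rule flags about 5% of groups by chance only where values are normally distributed. A group with a single library above 0 is always flagged, so 11 of 75 cannot be set against that share.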

How the results depend on the processing

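No result reversed. Of the other settings, 126 of 157 counts of called members stayed within 1.5 times and 31 did not, and among leave-one-out fits 201 did and 24 did not. With no filter on low counts, called members were 7, 8 and 6 at D12 and 5, 6 and 4 at D28 against naive (3, 9 and 18 months), 1 and 4 between D28 and D12 (3 and 18 months), 1 and 5 for 9 and 18 against 3 months at D12, 2 for 9 against 3 months at D28, and 6 and 1 between sexes at D12 and D28. A fit per age gave 5 at D12 at 3 months and 0 between D28 and D12 at 18 months. The plain test gave 6 and 6 at D12 (3 and 18 months), 1 and 1 at D28 (3 and 18 months) and 2 between D28 and D12 at 18 months. DESeq2 gave 1 and 5 at D28 (3 and 9 months), and 0 between D28 and D12 at 18 months, as did uncorrected counts, the library with 2 day labels at D12, the doubtful 18-month library kept, and sex as a term. At 9 months D28, uncorrected counts and the replicate block each gave 1. The cause of these moves was not tested.

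Leaving out a library gave 2 to 3, 1 to 5 and 1 to 2 members at D12, 0 to 0, 0 to 4 and 0 to 1 at D28, 0 to 0, 0 to 0 and 0 to 1 between D28 and D12, 0 to 0 between ages, and 0 to 1 and 0 to 0 between sexes at D12 and D28. The replicate numbers did not pair libraries: deviations from group means correlated at -0.0114 over 464 pairs of the same number and 0.00407 over 1348 others, and 7 of 62 libraries correlated best with their own number. The block moved no other count of called members by over 1.5 times. Over all genes, the plain test called 1358, 1782 and 1354 at D12 against 455, 562 and 443, DESeq2 303 and 264 at D12 (3 and 18 months), and the counts of 67, 79 and 106 at D28 against naive became 209, 222 and 231 with no filter and 275, 413 and 474 under the plain test, with 120 at 3 months and 62 at 18 months in a fit per age. Those of 14, 46 and 26 between D28 and D12 ran from 5 to 234, 17 to 773 and 0 to 292 over the settings, those of 224 and 268 between ages at D12 from 0 to 612 and 2 to 580, those of 0 and 6 at D28 up to 52 and 91, and those of 8 and 8 between sexes up to 125 and 37. Some members had few reads, Prf1 above all, and the part of depth in this was not tested.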
